A study of Mus musculus with 20 samples.

Results

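The regions described here were open 1 week after the first wound and again 1 week after the second wound, but were called neither in homeostasis nor 8 weeks after the first wound. Overlapping peaks of all 10 deposited lists were merged into 101406 regions, where an overlap of 1 bp was enough. A region was chosen when a peak of each 1-week list overlapped it and no peak of the homeostasis or 8-week list did. The rule chose 4513 regions, or 4.45% of all. A separate list of vehicle-treated epidermis, which the rule did not use, held 3970 of the 4513, and 543 were not held by it. "Held" means here that a peak of the list overlaps the region. These members were chosen from the same calls that define them, so their presence in the 1-week lists and absence from the other 2 is a description, with no test.

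Open chromatin was profiled by ATAC-seq, a method that uses Tn5 transposase to cut and tag accessible DNA, in 20 mouse libraries that form 10 groups of 2. All groups share the genotype Lrig1CreER/Rosa-TdTomato and the sorted population, Lrig1 GL Sca1+ cells of the tail epidermis. The wound course comprises homeostasis (week 0), 1 week and 8 weeks after the first wound, and 1 week after the second wound. The other groups are vehicle, PRT4165 (an inhibitor of the histone H2A ubiquitin ligase of Polycomb repressive complex PRC1), UVB, wound with UVB, and 2 groups of cultured cells, taken at 8 weeks from a control (non-memory) region or from the distal memory region. The Cre follows the Lrig1 gene, so the red marker reports cells that expressed Lrig1 when Cre was activated, and their descendants. The wound site and size, the interval between wounding and UVB, and the age, sex and number of the animals do not appear in the labels. Both libraries of a group contribute to a single peak list. No spread between replicates is available, no difference between groups was tested, and every interval below covers counting error only. A region that is missing from a list may be closed, open in fewer cells, or below what that list could detect, and these cannot be told apart.

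In skin, a wound sets epidermal stem cells and their progeny into migration and proliferation, and cells of the upper hair follicle leave their niche to help cover the gap. Enhancers that open during this response are commonly bound by stress-responsive factors such as AP-1, and some of them close again once the barrier is restored while others remain accessible as a chromatin memory of injury. Open chromatin is found both at gene starts, many of which are open in most cells, and at distal enhancers, which differ more between cell states.

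Most members lay far from gene starts, and the few at gene starts are the ones for which promoter sequence was at hand. RefSeq promoter windows (GRCm38.p6, the assembly of mm10) span 250 bases before to 50 after a start and cover 79.9% of the protein-coding genes. In all, 129 members had their summit, the position of strongest signal, inside such a window, 120 of them held by vehicle and 9 not. Some of these starts are shown, each with the 250 bases before it, written 5′ to 3′ on the strand of the gene. The first set holds starts with a match to the AP-1 motif TGANTCA, which is in capitals.
Ivl (chr3:92573736-92573985, minus strand): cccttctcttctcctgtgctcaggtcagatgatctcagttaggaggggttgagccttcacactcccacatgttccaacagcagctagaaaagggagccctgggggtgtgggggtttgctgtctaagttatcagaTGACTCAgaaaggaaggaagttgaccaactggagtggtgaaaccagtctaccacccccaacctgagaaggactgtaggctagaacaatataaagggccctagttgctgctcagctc
Tmigd1 (chr11:76890870-76891119, plus strand): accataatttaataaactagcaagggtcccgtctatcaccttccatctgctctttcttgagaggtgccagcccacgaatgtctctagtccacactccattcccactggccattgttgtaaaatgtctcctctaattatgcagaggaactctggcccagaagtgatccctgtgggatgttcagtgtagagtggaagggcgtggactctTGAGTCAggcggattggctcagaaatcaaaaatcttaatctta
Adssl1 (chr12:112619797-112620046, plus strand): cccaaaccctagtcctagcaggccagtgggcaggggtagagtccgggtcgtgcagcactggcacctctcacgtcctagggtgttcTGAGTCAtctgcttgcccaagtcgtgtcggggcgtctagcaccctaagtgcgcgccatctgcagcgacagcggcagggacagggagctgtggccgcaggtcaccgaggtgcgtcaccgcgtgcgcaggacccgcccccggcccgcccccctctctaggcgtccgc
The second set holds starts of members that the vehicle list did not hold, and the 21 bases centred on the summit are in capitals.
Lhx3 (chr2:26208250-26208499, minus strand): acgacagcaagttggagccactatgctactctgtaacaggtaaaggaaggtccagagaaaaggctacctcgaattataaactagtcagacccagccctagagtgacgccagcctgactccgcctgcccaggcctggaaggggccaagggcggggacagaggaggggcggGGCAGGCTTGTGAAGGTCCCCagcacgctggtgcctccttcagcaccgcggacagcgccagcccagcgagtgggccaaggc
Mgat5b (chr11:116918613-116918862, plus strand): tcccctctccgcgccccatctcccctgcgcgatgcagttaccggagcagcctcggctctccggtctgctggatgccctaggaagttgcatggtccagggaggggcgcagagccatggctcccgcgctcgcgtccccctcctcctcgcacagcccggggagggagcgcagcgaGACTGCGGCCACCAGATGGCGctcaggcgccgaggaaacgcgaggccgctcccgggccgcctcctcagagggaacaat
Cpne5 (chr17:29237791-29238040, minus strand): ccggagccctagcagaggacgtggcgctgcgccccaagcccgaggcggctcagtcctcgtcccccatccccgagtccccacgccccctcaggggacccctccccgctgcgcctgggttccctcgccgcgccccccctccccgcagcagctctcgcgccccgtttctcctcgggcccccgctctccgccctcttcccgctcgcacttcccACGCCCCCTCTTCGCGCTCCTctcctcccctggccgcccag

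Ivl encodes involucrin, a precursor of the cornified envelope of differentiating keratinocytes. Its AP-1 match begins 116 bases before the start, and the member summit lay 6 bases past the start. The signal value, the enrichment that the authors' list gives each peak, was 7.43 at Ivl in the first 1-week list and 5.89 in the second, and all 6 lists outside the wound course held the region. The match of Tmigd1 begins 43 bases before the start and that of Adssl1, a muscle-type adenylosuccinate synthase, 165 bases before it. An AP-1 match was present in 7 of the 138 windows with a member summit (5.07%, Wilson 95% interval 2.48 to 10.1), against 6.99% of all 21262 promoter windows and 4.87% of the 6510 windows with a summit in all 4 wound-course lists. The share was thus near that of promoters at large. The ETS motif CCGGAAG, searched like the others on both strands, was found in 5.80% of the member windows (2.97 to 11.0), in 11.6% of all windows and in 24.1% of those with a summit in all 4 lists. The NF-kB motif was found in 36.2% (28.7 to 44.5), 23.0% and 27.4%, and the SP motif GGGCGGG in 44.9% (36.9 to 53.3), 33.9% and 55.4%. The member windows were richer in G and C than promoters at large, with a mean of 61.7% against 56.2%, which bears on motifs made of these letters. Windows with a summit in all 4 lists had 62.4%. The 213 windows with a summit of the first wound alone had 62.0%, with ETS in 7.04%, NF-kB in 22.5% and SP in 47.4%. The part of base composition in the motif shares was not tested. A match is a description of the letters and not a bound site.

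Lhx3, a LIM-homeodomain gene of pituitary and motor neuron development, had its summit 71 bases before the start. Its region had signal values of 8.35 and 9.28 in the 1-week lists and was also held by UVB, wound with UVB and both cultured lists. At Mgat5b, a glycosyltransferase gene, the summit lay 68 bases before the start. The capitals there include a match to the core motif of the insulator protein CTCF. This motif was found in 4.35% of the member windows (2.01 to 9.16) and in 2.34% of all windows. The share was 3.29% in windows with a summit in all 4 wound-course lists and 3.76% in those of the first wound alone. Cpne5, which encodes a calcium-dependent membrane-binding protein, had its summit 31 bases before the start and was held outside the 1-week lists only by UVB and wound with UVB. A member at the divergent starts of Trp53, the p53 tumour suppressor, and Wrap53 was among the weaker ones. Its signal values were 4.08 and 4.50 in the 1-week lists. Wound with UVB and cultured control held it, but vehicle, UVB and PRT4165 did not. By the assignment to genes described below, this member was not counted for Trp53. The only region assigned to Trp53 was not a member and was held by every list, homeostasis included.

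Lists of this series differ in length and in one sex-linked feature, which bears on every set below. The homeostasis and 8-week lists were the shortest of the 10, with 35195 and 34644 regions, against 49078 and 42200 in the first and second 1-week lists and 70008 in the vehicle list. The longest was UVB with 73340, followed by PRT4165 with 68411 and wound with UVB with 66541, and the cultured lists held 54188 (control) and 45714 (distal). When each list was limited to its strongest 34644 regions, 2336 regions met the rule, of which 2335 are members as reported. Regions at the Y-linked genes Ddx3y, Uty and Eif2s3y were held by both 1-week lists, wound with UVB and both cultured lists, and by none of homeostasis, 8 weeks, vehicle, PRT4165 and UVB. The groups of the rule are therefore split by the Y chromosome in the same way as by the rule, and its part in the autosomal results was not tested. Only 5 members lie on chromosome Y and 70 on X, and without both chromosomes 4438 members remained. Of the 8 genes taken as markers of the sorted cells, Trp63 had between 10 and 28 regions per list, Lrig1 between 8 and 21, Itga6 between 7 and 19, Krt14 between 2 and 7, Krt5 between 2 and 5 and Ly6a, which encodes Sca1, between 1 and 5. Krt15 had no region in either cultured list, and Krt79 had none in homeostasis and in cultured distal.

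The members were weaker than the typical region of the lists that define them. In the first 1-week list their signal value ranged from 2.60 to 20.1 with a median of 7.57, against a list median of 9.09, and in the second from 2.59 to 29.6 with a median of 7.63, against 9.52. Of the 4513, 26.4% lay above the median of the first list and 19.9% above that of the second, and 579 above both. The authors' −log10 p had a median of 38.9 in the first list and 30.0 in the second. Among the 37050 regions shared by both 1-week lists, the share that met the rule fell with strength, taking each region at the lower of its 2 percentiles: 25.7% of those up to the 25th percentile were members, then 16.0%, 5.48%, and 0.628% above the 75th. Just outside the rule, the 3199 regions held by both 1-week lists and homeostasis but not at 8 weeks had a median signal value of 7.25 in homeostasis, and the lowest was 2.84 among all homeostasis regions shared with both 1-week lists. The 3324 regions held by both 1-week lists and 8 weeks but not homeostasis had a median of 7.75 in the 8-week list. Such values are close to those of the members themselves in their own lists.

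**Figure D1:**
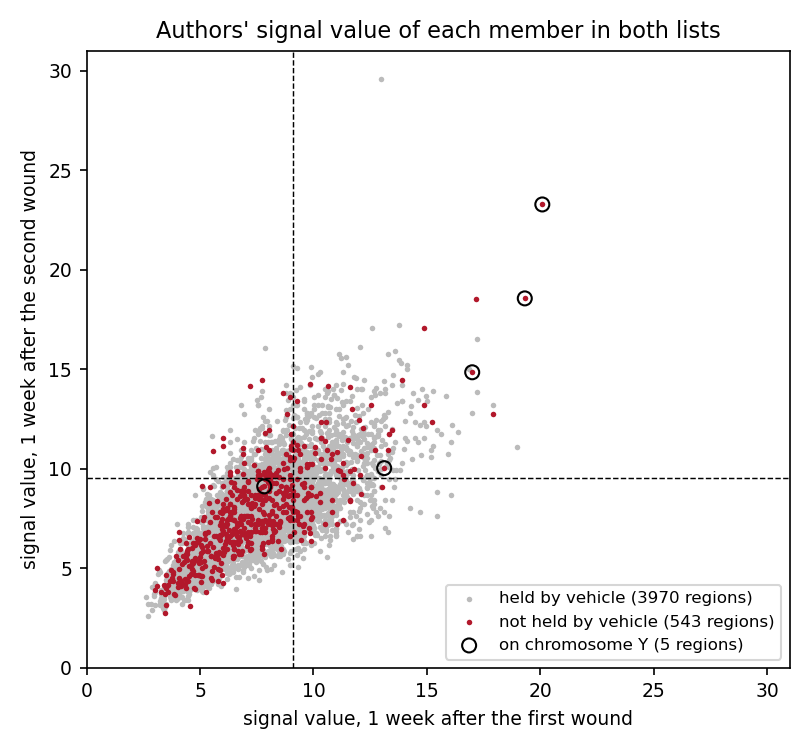
Signal value of each of the 4513 members 1 week after the first wound (x axis) and 1 week after the second wound (y axis), on the authors' scale of enrichment. Grey points are the 3970 members held by vehicle, red points the 543 not held, circles the 5 on chromosome Y, and dashed lines the median of each list (9.09 and 9.52). Most points lie below both medians, and 3 of the highest are on chromosome Y.

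The rule requires both 1-week lists to hold each member, so only the distance between their summits is described. The summits of the lists differed by a median of 16 bp, and 84.2% lay within 50 bp of each other, against 12 bp and 89.0% for the 26014 regions of all 4 wound-course lists. The rule also bars overlap of a member with a homeostasis or 8-week region. The nearest such region was a median of 8286 bp away, 105 members (2.33%) had one within 200 bp, and 497 (11.0%) within 1000 bp.

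The strongest members fell into 3 groups by the other lists that held them. Among the members not held by vehicle, the highest ranks in both 1-week lists belonged to the Y-linked Ddx3y (chrY:1286210-1286838), with signal values of 20.1 and 23.3, and Uty (chrY:1244824-1245988), with 19.3 and 18.6. The third, 33.3 kb from Pja1, a ubiquitin ligase gene on the X chromosome (chrX:99504104-99504821), reached 17.1 and 18.5, and 26.5 in the wound-and-UVB list. It was listed at 9.20 in PRT4165 and was absent from vehicle, UVB and the cultured lists. Next was a region inside Mkln1, the gene of muskelin, a protein of cell spreading (chr6:31513663-31514327), with 14.9 and 17.0 in the 1-week lists, 22.9 in wound with UVB and 11.9 in UVB. Eif2s3y (chrY:1009929-1010889) had 17.0 and 14.8. Maml2, a co-activator of Notch transcription, held the sixth region (chr9:13511033-13511344), with 13.9 and 14.4, and 22.8 in wound with UVB, the only further list that held it. With X and Y left aside, regions at Zmynd8 (14.9 and 13.2), Fblim1 (12.5 and 13.2), Cacul1 (17.9 and 12.8) and Ctso (12.0 and 12.4) followed Mkln1 and Maml2. Wound with UVB held each of these 4, with values from 14.9 to 25.3.

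Members held by vehicle were led by a region 18.7 kb from Letmd1, which encodes a mitochondrial membrane protein (chr15:100443030-100444064), with 17.2 and 16.5 in the 1-week lists. All 6 lists outside the wound course held it, with values from 12.4 to 24.6. A region 18.6 kb from Dclre1a, a DNA crosslink repair gene, had 16.9 and 15.0, and a region on chromosome 17 with no gene within 100 kb had 14.1 and 15.0. Inside Arhgap24, chr5:102698482-102699349 had 14.1 and 15.2, and the region 10.8 kb from Dgat2l6, a lipid acyltransferase gene, 13.9 and 15.3. The sixth lay inside Has2 (chr15:56678685-56679691), the hyaluronan synthase induced in wounded epidermis, with 13.8 and 17.2. At Has2 the vehicle and PRT4165 lists gave 9.18 and 9.28, UVB 15.6 and wound with UVB 21.8, and neither cultured list held it. Of these 6, the cultured control list held only the regions of Letmd1 and Dclre1a.

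The third group, 132 members, was held by the wound-and-UVB list and by no other list outside the wound course, so that every list holding them came from wounded epidermis. They make up 2.92% of the members, against 2.96% of all regions. Regions held by another single list outside the wound course were rarer among the members. These were 0.51% against 2.45% for vehicle, 0.33% against 2.31% for PRT4165 and 0.49% against 3.86% for UVB. For cultured control they were 0% against 4.78%, and for cultured distal 0% against 1.31%. All regions include some called in just 1 of the 10 lists, while the rule puts every member in both 1-week lists. These shares, that of wound with UVB included, are therefore not like for like, and no difference between them was tested. Only regions that vehicle lacked can be held by wound with UVB alone. This was so for 3006 of those 33333 regions and for 132 of those 543 members. After Maml2, the strongest were at Keg1 (chr19:12708275-12709008, with 10.6 and 14.1, and 21.7 in wound with UVB), at Pgap2 of GPI-anchor maturation (10.5, 11.4 and 13.1), at Kalrn (10.6, 11.0 and 7.25), near Slc16a9 (10.3, 11.6 and 15.0) and at Cdc45, a replication factor (10.3, 10.5 and 14.0). The Fas gene, a death receptor that p53 induces, had 1 of these members 0.53 kb from the gene but 37.6 kb from its start (chr19:34327927-34328605), with 11.7, 9.28 and 17.1. None of the 132 lay within 1 kb of a gene start (interval up to 2.83%), with starts counted for 79.9% of the protein-coding genes. That share was low among regions that vehicle lacked in general, with 3.43% of all such regions and 3.31% of such members. A further 38 members were held by no list outside the wound course, so they too were held only by lists of wounded epidermis.

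**Figure D2:**
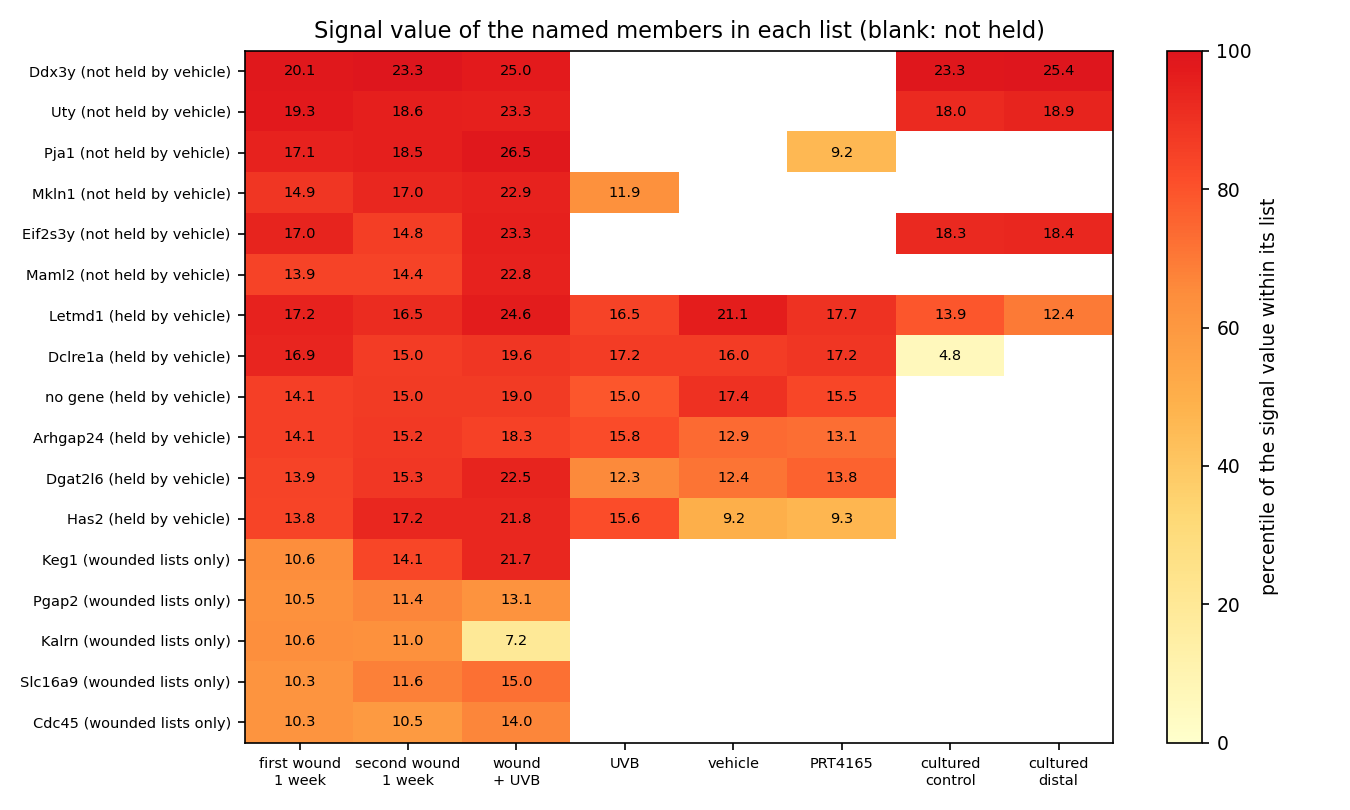
Signal value (number in each cell) of the 17 named members in the 8 lists that can hold them, with the colour giving the percentile of the value within its own list and blank cells meaning that the list did not hold the region. Rows are named by gene and by the group that led to their choice, and values are on a scale of their own in each list. All 17 were held by wound with UVB, which was a condition of choice for the rows labelled as wounded lists only. Both cultured lists held the 3 Y-linked regions and that of Letmd1.

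Epidermis that had received vehicle, PRT4165 or UVB held most of the members although these groups carry no wound in their labels. Vehicle held 88.0% of the 4513 (87.0 to 88.9), against 67.1% of all 101406 regions. PRT4165 held 83.2% (82.1 to 84.3) against 65.3%, UVB 88.3% (87.3 to 89.2) against 70.7%, and wound with UVB 88.9% (87.9 to 89.7) against 63.5%. The cultured lists went the other way: cultured control held 34.5% (33.1 to 35.9) against 52.2%, and cultured distal 28.2% (26.9 to 29.5) against 44%. The 4 lists of uncultured cells among these 6 (called fresh tissue here) held 1764 members (39.1%) that neither cultured list held, and all 6 lists held 951 (21.1%). Ranks within the vehicle list put the members it held at a median percentile of 43.6, within UVB at 45.2 and within wound with UVB at 45.5. All 4 lists of fresh tissue were longer than any of the wound course. Limited to 45714 regions each, the length of the shortest of the 6, vehicle held 56.5% of the members, PRT4165 52.7%, UVB 53.9%, wound with UVB 60.9%, cultured control 28.5% and cultured distal 28.2%. Under the same limit each of the 6 held between 44.0 and 44.9% of all regions.

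Related sets showed where the members stood between them. Of the 6554 regions open only 1 week after the first wound, vehicle held 77.4% and wound with UVB 70.7%. Of the 2858 open only 1 week after the second wound, the shares were 70.3% and 67.9%. The 3324 regions gained after the first wound and still held at 8 weeks were held by vehicle at 97.7% and by wound with UVB at 95.8%. Cultured control held 33.9%, 26.9% and 46.7% of these 3 sets, and cultured distal 27.1%, 21.4% and 40.3%. Regions called in 2 lists or 3 have passed more calls than regions of 1 list, so their shares are set side by side without a test.

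**Figure D3:**
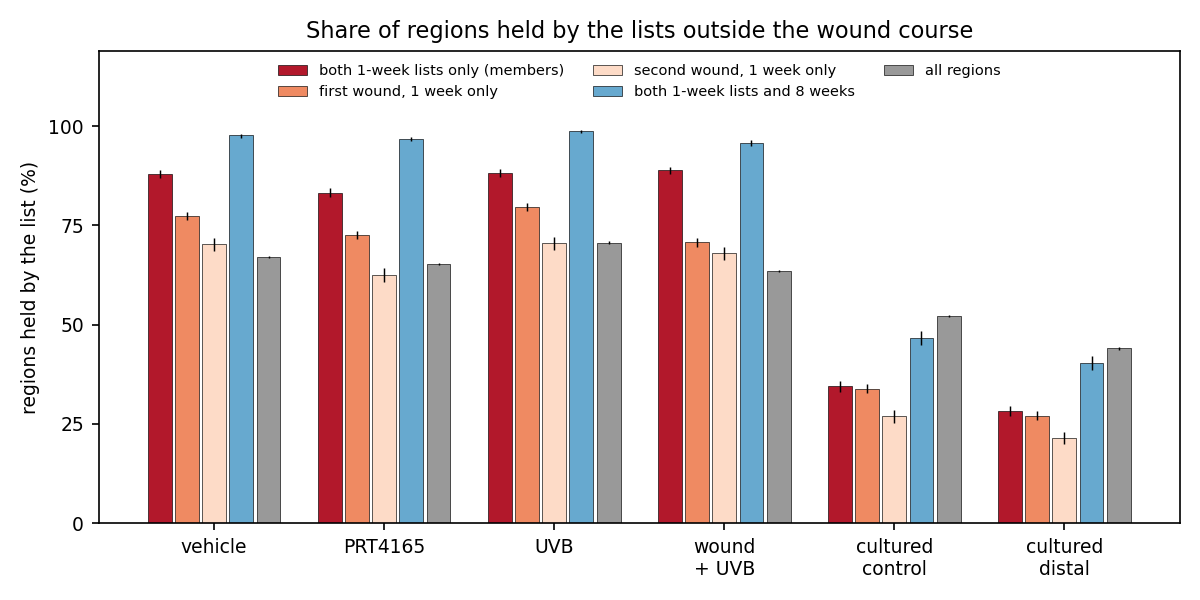
Percentage of regions held by each of the 6 lists outside the wound course, with Wilson 95% intervals that cover counting error only, for the members, for regions of a single 1-week list, for regions of both 1-week lists and 8 weeks, and for all regions. The members stand at 83.2 to 88.9% in the 4 lists of fresh tissue and at 28.2 to 34.5% in the cultured lists.

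The 543 members not held by vehicle give the narrower set, of regions that the homeostasis, 8-week and vehicle lists all lacked. Wound with UVB held 79.2% of them (75.6 to 82.4), against 26.9% of all 33333 regions that vehicle lacked. UVB held 56.2% (52.0 to 60.3) against 34.6%, and PRT4165 43.3% (39.2 to 47.5) against 22.5%. Cultured control held 17.5% (14.5 to 20.9) against 49.7%, and cultured distal 12.9% (10.3 to 16.0) against 36.3%. Within wound with UVB these members ranked at a median percentile of 42.8, within UVB at 33.6 and within PRT4165 at 25.2. Their signal values in the 1-week lists, with medians of 7.19 and 7.58, were near those of the members that vehicle held, 7.59 and 7.65.

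The UVB groups add a comparison of wounded and unwounded epidermis that the rule did not use. Among all regions the wound-and-UVB list alone held 6500 (6.41%) and the UVB list alone 13801 (13.6%), so the wounded list held 32.0% of those found in only 1 of these lists. Among the members this turned to 388 against 362, or 51.7% (48.2 to 55.3). The members held by vehicle gave 206 against 305, or 40.3% (36.1 to 44.6), and those not held by vehicle 182 against 57, or 76.2% (70.4 to 81.1). The background for the last is all regions not held by vehicle, with 4184 (12.6%) against 6733 (20.2%), or 38.3%. With chromosomes X and Y left out, the members not held by vehicle gave 175 against 57, or 75.4%. With both UVB lists limited to 66541 regions, they gave 215 against 50, or 81.1%, where all regions not held by vehicle gave 49.5%. Those that PRT4165 lacked as well, a split chosen after the data were seen, gave 146 against 26, or 84.9%, where all regions that both lists lacked gave 3467 against 5013, or 40.9%.

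Sets open after only 1 of the wounds were less one-sided in the same comparison. Regions of the first wound alone that vehicle lacked gave 247 against 312, or 44.2% (40.1 to 48.3), and those of the second wound alone 205 against 110, or 65.1% (59.7 to 70.1). The set that stayed at 8 weeks had 77 regions that vehicle lacked, with 3 against 15. The intervals of the members and of the first-wound set do not overlap, but they cover counting error over regions, and with 1 list per group the difference between the sets has no replicate check. The wound-and-UVB list also carries the Y-linked regions and the UVB list does not, so wounding and this feature cannot be told apart in that pair.

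**Figure D4:**
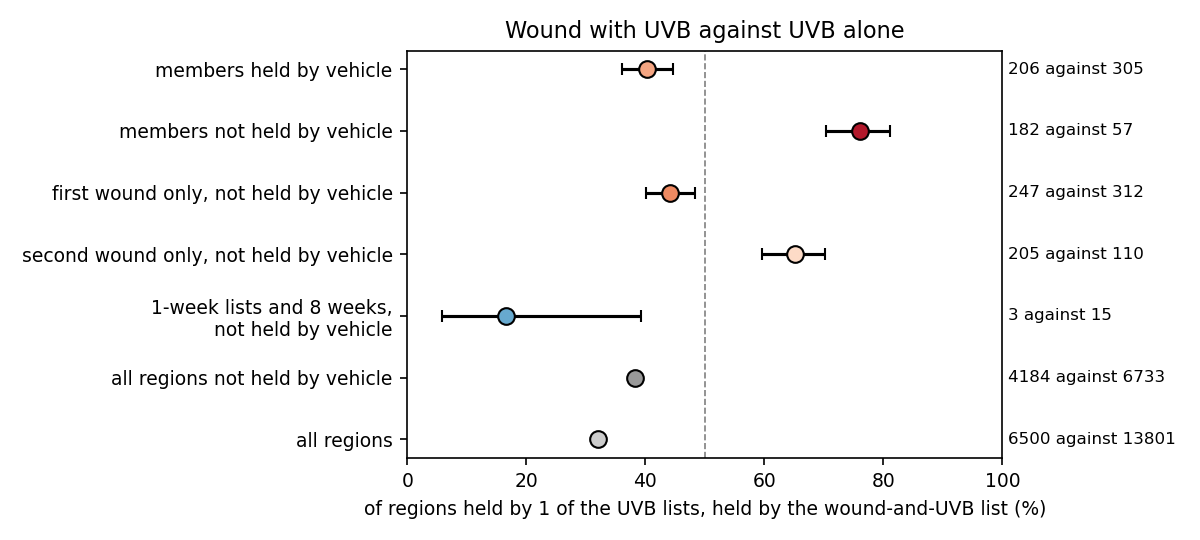
Of the regions held by only 1 of the UVB lists, the percentage held by the wound-and-UVB list, with Wilson 95% intervals that cover counting error only. Counts at the right give regions held by wound with UVB alone against UVB alone, and the dashed line marks 50%. The members not held by vehicle stand at 76.2%, and all regions not held by vehicle at 38.3%.

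In the PRT4165 pair the members stood below all regions, leaning to the vehicle list, and in the cultured pair they stood near all regions. PRT4165 alone held 235 members and vehicle alone 448, a share of 34.4% (30.9 to 38.0), where all regions gave 44.6%, with 7.4% held by PRT4165 alone and 9.19% by vehicle alone. Cultured distal alone held 108 members and cultured control alone 393, a share of 21.6% (18.2 to 25.4), close to the 22.3% of all regions, with 3.31% and 11.5% held by each alone.

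Members were rare at gene starts, which were counted only for the 79.9% of protein-coding genes with a promoter window. Of the 4513, 5.76% (5.12 to 6.48) had their summit within 1 kb of a start, against 11.3% of all regions and 28.7% of the regions of all 4 wound-course lists. The share was 6.10% among members held by vehicle and 3.31% among those not held, and 6.93%, 3.92% and 7.07% for the first-wound, second-wound and kept sets. A share of 52.6% lay inside a protein-coding gene, where all regions had 51.6%, and 9.28% had no gene within 100 kb, where all had 9.39%. Exons and introns were not separated. Regions were assigned to the protein-coding gene around the summit (the shortest, if several), or else to the nearest gene within 100 kb, which gave 4094 members a gene. Assignment is by position and says nothing of which gene a region controls.

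Those 4094 members were spread over 3055 genes, of which 2353 had 1 member, 218 had 3 or more and 26 had 5 or more. Prickle2, a planar cell polarity gene, had the most, with 8 members among its 40 regions. Vehicle held 7 of the 8, and the strongest of them had 10.7 and 12.8 in the 1-week lists (chr6:92642842-92643910). Pard3, which encodes a polarity protein of the apical junction, had 7 of 55, all held by vehicle. Genes with many regions of any kind led this count. Lpp, an adhesion-site protein gene, had 6 of 69, Tenm4 6 of 60, Cdh13 6 of 38, Bcr 6 of 27 and Arhgap24 5 of 48.

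Ntrk2, which encodes the neurotrophin receptor TrkB, had 7 members among 40 regions. Its strongest (chr13:58855870-58856582) had 11.5 and 11.4 in the 1-week lists, 9.45 in UVB and 15.8 in wound with UVB, and was not held by vehicle or PRT4165. A second (chr13:58980714-58981145), with 6.36 and 7.46, had the same pattern of lists, and the other 5 were held by all 4 lists of fresh tissue. No cultured list held any of the 7.

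Kalrn had 6 members among 42 regions and the most that were held besides only by wound with UVB. These were chr16:34237078-34237905 with 4.44 and 5.88, chr16:34342298-34343504 with 10.6 and 11.0, and chr16:34534446-34534768 with 7.73 and 6.14, and wound with UVB listed them at 5.70, 7.25 and 6.60. Another of its members, chr16:34081495-34082460, was held by all 6 lists. Dis3l2, an exoribonuclease gene, had 5 of 24 with 2 held besides only by wound with UVB, of which chr1:86969044-86969816 had 11.4 and 9.47. Fam189a2 had 2 such members and no other, and Sema5a, an axon guidance gene, 1 among 5.

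Members that lay close together were joined into stretches. Joined where neighbours lay within 25 kb, 14 stretches held at least 4 members each. No such count is given for all regions, so these stretches are a description only. Of those with 5 members, the shorter was a stretch of 36.5 kb beside Spdl1, a spindle assembly gene (chr11:34845336-34881881), where vehicle held 3. All 6 members assigned to Spdl1, of its 14 regions, lie between 12.1 and 76.9 kb from the gene, and 1 of them within 20 kb. The farthest (chr11:34909919-34910895) had 9.85 and 14.2 and was held besides only by wound with UVB. A stretch of 43.0 kb in Bcr also had 5. Among stretches with 4 members were those at Fat2, an epithelial protocadherin gene (30.5 kb), at Clic6 and Runx1 (33.0 kb) and at Ccr7 and Tns4 (34.9 kb), all of them held by vehicle throughout.

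Genes of chosen pathways held members at rates near the 4.45% of all regions. In the Wnt pathway 33 of 539 regions were members (6.12%, 4.39 to 8.47), on 24 of 44 genes. Dkk3, a secreted member of the Dickkopf family, had 3 of 10, all inside the gene and held by vehicle, with 5.31 and 6.81, 5.78 and 9.36, and 4.62 and 5.17. Tcf7l2, a Wnt effector expressed in follicle stem cells, had 3 of 35, the strongest with 10.4 and 11.6. Immediate early genes, which code for AP-1 and other first-response factors, had 13 of 198 (6.57%, 3.88 to 10.9) on 10 of 19 genes. The members of Jun had 8.04 and 7.97 (chr4:95068273-95068883), and 7.80 and 6.27, and both were held by all 4 lists of fresh tissue. One of the 2 at Egr2 (chr10:67528573-67529382, with 5.57 and 10.9) and the only one of Atf3 (chr1:191192075-191192651, with 3.69 and 4.35) were held besides only by wound with UVB.

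Growth factor genes had 22 members of 419 regions (5.25%, 3.49 to 7.82), of which 7 were those of Ntrk2. Nrg1, an ErbB receptor ligand, had 4 of 41, and 1 of them (chr8:31864597-31865240, with 8.04 and 7.42) was held by no list outside the wound course. TGF-beta and BMP genes had 19 of 423 (4.49%, 2.89 to 6.91). Smad3, the signal transducer of TGF-beta, had 4 of 28, and the region 35.9 kb from it (chr9:63793563-63794199) was among the strongest of any list gene, with 17.0 and 12.8. All 6 lists held that region. Tgfbr3, a TGF-beta co-receptor, had 3 of 35. The Notch genes had 12 of 214 (5.61%, 3.24 to 9.54), 4 of them at Maml3 and 3 at Maml2, both co-activators, and 1 at Notch1.

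Cytoskeleton and migration genes had 22 of 414 (5.31%, 3.54 to 7.91). Cd44, the hyaluronan receptor, had 4 of 41, with 15.6 and 11.7 at the strongest (chr2:102849762-102850534), all held by vehicle. Ahnak, a large scaffold protein gene, had 3 of 26, of which vehicle lacked 2, and Tpm1, a tropomyosin gene, 3 of 19. By contrast, keratins and other genes known for the wound edge had 4 members of 203 regions (1.97%, 0.769 to 4.96), 1 each at Krt6a, Tnc, Itgb1 and Ptgs2. Homeostasis held 73 of these 203 regions and the first 1-week list 91. The Hippo and YAP genes had 6 of 209 (2.87%, 1.32 to 6.12).

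Epidermal differentiation genes had 10 of 172 (5.81%, 3.19 to 10.4). Tgm3, a transglutaminase of the cornified envelope, had 3 of 30, and Grhl3, a barrier transcription factor gene, 2 of 20, all held by vehicle. Klf4, which drives barrier formation, had 2 of 16. The one 20.4 kb from it (chr4:55552563-55553069) had 9.12 and 11.3, and of the other lists only wound with UVB (13.2) and PRT4165 (6.75) held it. Basal layer and adhesion genes had 13 of 274 (4.74%), all held by vehicle, with 2 each at Krt14, Itga6, Dst and Dsc3. Upper follicle and sebaceous genes had 10 of 191 (5.24%), with 2 at Fst, an activin inhibitor, and 1 at Lrig1. Bulge and lower follicle genes had 16 of 362 (4.42%), with 3 each at Tcf7l2 and Runx1 and 2 at Nfatc1, a quiescence factor of follicle stem cells.

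Inflammation and alarmin genes had 12 of 286 (4.20%), 3 of them at Nfkbia, the inhibitor of NF-kB, glycolysis and hypoxia genes 9 of 204 (4.41%), and p53 and DNA damage genes 8 of 188 (4.26%). Cdkn1a, the p21 cell cycle inhibitor, had 2 of 6, the stronger with 13.5 and 12.0 (chr17:29078192-29079330), both held by vehicle. Polycomb genes had 7 of 132 (5.30%), with 3 at Jarid2, a subunit of the PRC2 complex, and developmental regulators 10 of 167 (5.99%), with 3 of 6 at Hoxb1. Markers of other cells had few: 2 of 29 regions for fibroblasts (Col1a1 and Dpt), 1 of 20 for T cells, 1 of 15 for macrophages and Langerhans cells, 2 of 41 for endothelium, 4 of 37 for melanocytes (3 at Mitf and 1 at Tyrp1), 0 of 6 for Merkel cells and 1 of 7 for muscle. Some of these markers had regions in both 1-week lists, such as Dcn with 3 in each (0 in homeostasis), Col1a1 with 3 in each, Cd2 with 10 and 6, Pecam1 with 11 and 9, and Ptprc and Itgam with 1 in each. Cd3e, Cd3d, Cd3g, Csf1r, Cd207, Lyz2, Col1a2 and Lum had none in either. In the order homeostasis, first 1-week, 8-week and second 1-week list, the fibroblast markers had 3, 12, 7 and 9 regions, those of T cells 6, 14, 8 and 7, of macrophages and Langerhans cells 4, 4, 1 and 4, of endothelium 18, 24, 11 and 21, of melanocytes 8, 13, 8 and 14, of Merkel cells 2, 3, 2 and 1, and of muscle 1, 3, 1 and 1. The part of other cell types in the members was not tested. The lists' intervals include 4.45% for each pathway named here, and no list was tested.

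**Figure D5:**
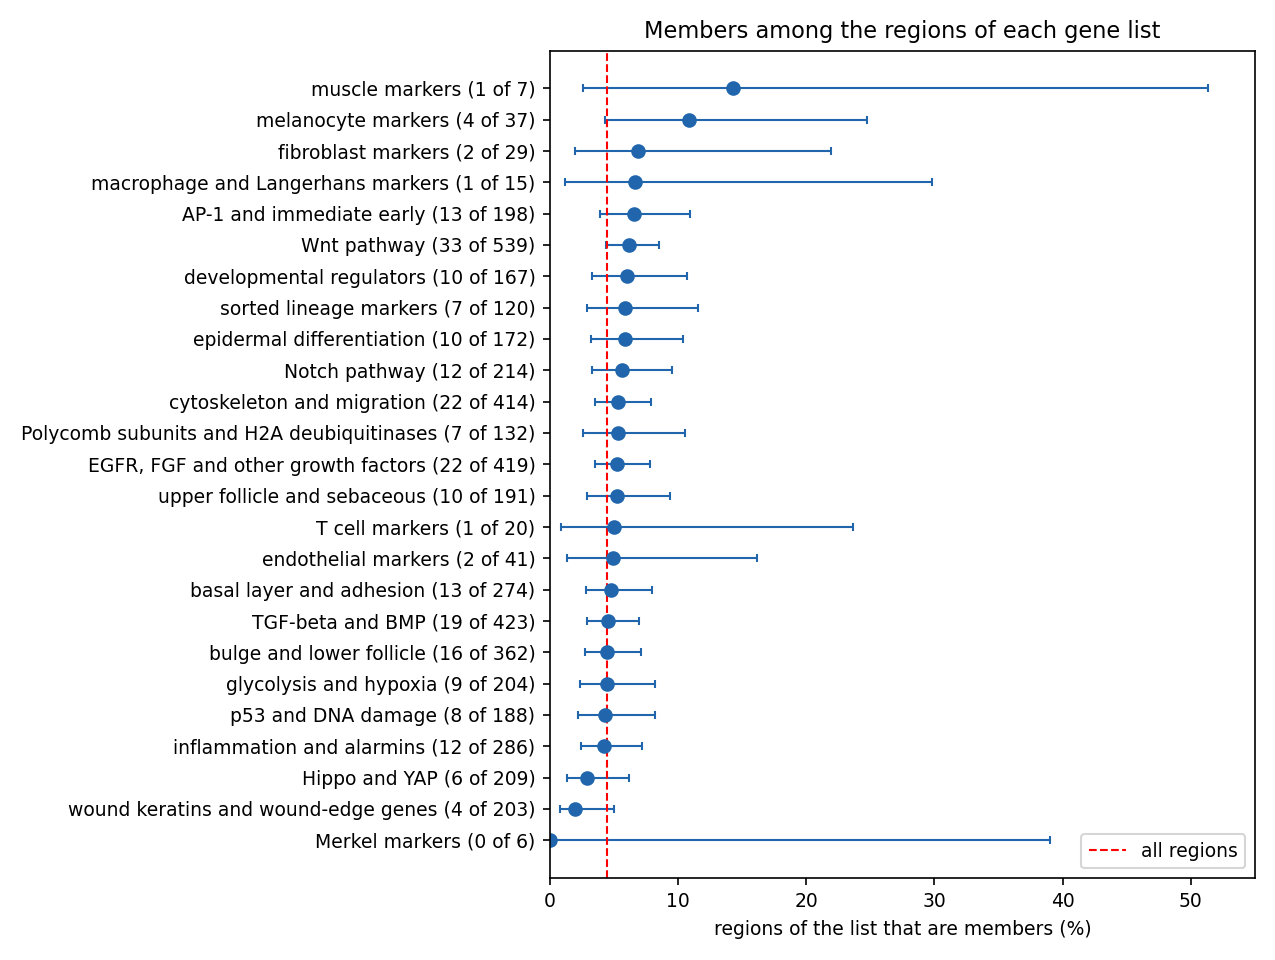
Percentage of the regions assigned to each gene list (Y-linked genes, with 3 of 8, are not drawn) that are members, with Wilson 95% intervals that cover counting error only, and counts in the row names. The dashed line marks the 4.45% of all regions. Of the lists drawn, those of muscle and melanocyte markers stand beyond 7%, and wound keratins and wound-edge genes stand at 1.97%.

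Some members lay near microRNA genes, in a slightly smaller share than all regions. Within 5 kb of a hairpin there were 27 members (0.598%), against 0.784% of all regions, beside 37 of the 1005 hairpins in the RefSeq table. One such region (chr4:156053229-156053556), with signal values of 5.56 and 5.61, lies beside the cluster of Mir429, Mir200a and Mir200b, a family that maintains the epithelial state. Vehicle, UVB and wound with UVB held it. The mature strands are printed with their seeds (bases 2 to 8, in capitals). The seed is AAUACUG in both miR-200b-3p and miR-429-3p, and AACACUG in miR-200a-3p.
mmu-miR-200a-3p: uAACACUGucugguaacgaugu
mmu-miR-200b-3p: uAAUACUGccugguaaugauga
mmu-miR-429-3p: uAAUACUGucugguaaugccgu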

How the data were processed

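ATAC-seq libraries were made from sorted cells by Tn5 transposition and Nextera XT indexing, per the labels' protocols. The submitters' processing notes name mm10 as the build. The aligner, peak caller, filters, depth and any Tn5 shift were not given in the sources used here. Per group, the authors deposited 1 peak list, made from both of its libraries and, as far as the list names tell, limited to peaks reproducible between them. Whether replicates are separate animals is not stated. Each deposited peak carries a score (not used here), a signal value (enrichment) and a −log10 p. The signal was used to rank and filter within a list. No per-library values were analysed here.

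Within each list, overlapping peaks (chromosomes 1 to 19, X and Y) were joined into a region, with the strongest peak giving signal and summit, and the 10 lists were merged into union regions (overlap of 1 bp). Shares have Wilson 95% intervals. Genes, promoters and miRNAs are from RefSeq, GRCm38.p6. As a check of the build, 15.1 to 25.2% of the regions of a list had their summit within 1 kb of a gene start, and 2.30 to 2.55% after a shift by 100 kb. Python 3.11.15, numpy 2.4.6, pandas 2.3.3, scipy 1.17.1, matplotlib 3.10.9 and bedtools 2.31.1 were used. The code was tested on simulated data, where all 1000 seeded members were found, and 4 of 4 counts were equal in bedtools.

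Named regions are 6 each from members held by vehicle, members not held by vehicle, and members held besides only by wound with UVB. They have the highest lower percentile in the 1-week lists. Named genes are the 10 with the most members and the 6 with the most members held besides only by wound with UVB. Per gene list, up to 3 genes with at least 2 members were named too. Autosomal regions, dense stretches, promoters, microRNAs and single list genes outside this rule were picked with their values in view. The members, gene lists and motifs were chosen with earlier results of these data known. The planned motif search around summits needs a genome sequence, which was not used here, so 22 motifs were counted in promoter windows. Alternatives for members absent from vehicle were added with the data in view. The other alternatives covered overlap, list length, strength, sex chromosomes, windows and gene distance.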

Additional observations from a re-analysis of the deposited data

How the results depend on the processing

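The number of members followed the lengths and strengths of the lists. It was 2336 with 10 lists of equal length, 579 for members above the median of both 1-week lists, and 17456 when absence was judged against the strongest 50% of the homeostasis and 8-week lists, but 4640 to 4645 under the other overlap rules and 4438 without X and Y. With the 6 other lists at equal length, the shares of members held were 56.5% (vehicle), 52.7% (PRT4165), 53.9% (UVB), 60.9% (wound with UVB) and 28.5% (cultured control). Among the stronger members they were 89.8% (vehicle), 88.4% (PRT4165) and 95.7% (wound with UVB). Of members held by 1 UVB list alone, wound with UVB held 66.9% at equal length and 74.4% among the stronger members, against 51.7% as reported. At equal length all regions gave 47.3%, up from 32.0%. A window of 500 bp left 4.34% at gene starts, and 507 of the stronger members had a gene. Of these values with an alternative, 15 moved beyond their interval or 1.5 times and 18 did not. Fewer regions enter when lists are shortened or strong members alone are kept. For other moves the cause was not tested. With only the stronger members counted over the same regions, the shares of 24 gene lists moved beyond their interval and 2 did not. Of the genes named for the most members, the counts of 13 moved by over 1.5 times and 1 did not. With genes within 20 kb the share of members in each of 26 gene lists stayed inside its own interval, although some intervals are wide and 5 shares moved by over 1.5 times: developmental regulators went from 5.99 to 3.45%, wound keratins and wound-edge genes from 1.97 to 1.30%, fibroblast markers from 6.90 to 11.8%, T cell markers from 5% to 7.69% and endothelial markers from 4.88 to 7.41%.

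No paired analysis was possible because each list pools both libraries of its group, and for the same reason there is no result without a given replicate. The planned motif windows of 50 bases around summits were not run. Depth per library is unknown.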
